A study of Homo sapiens with 4 samples.

Results

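Metallothioneins were followed through 4 single-cell libraries of H9, a human embryonic stem cell line: MT2A, MT1E, MT1F, MT1G, MT1H and MT1X, with MTF1 and SLC30A1 beside them. These are 8 of the 36601 genes counted, found by symbol. They were chosen by symbol after earlier results had shown low levels of MT1H and MT1G in SIRT1-knockout cells at day 0, so the ratios of that comparison are given as a description of the choice. H9 cells were either wild type or carried a deletion of SIRT1, an NAD-dependent deacetylase, and each genotype was sampled on day 0 and day 6 of a differentiation towards dopaminergic neurons. There was 1 library per group, so differences have no replicate check and are given without tests or p-values. The labels of all 4 groups give the same maintenance culture, on Geltrex in mTeSR1 medium, and release of the cells with TrypLE. The part of SIRT1 deleted, the number of knockout clones and the factors of the differentiation protocol are not given in the sources used here.

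Metallothioneins are small cysteine-rich proteins that bind zinc and copper and buffer free metal in the cell. MTF1 is a zinc-sensing transcription factor that binds metal response elements in metallothionein promoters when zinc is plentiful. SLC30A1 carries zinc out of the cell across the plasma membrane and is a known MTF1 target. Raised zinc thus classically raises metallothionein and SLC30A1 RNA together, and glucocorticoids, oxidants and low oxygen are known inducers as well.

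The 6 metallothionein genes lie within 75998 bases on chromosome 16 (GRCh38, GENCODE 29). In order they are MT2A (56608199 to 56609497), MT1E (56625475 to 56627112), MT1F (56657694 to 56660698), MT1G (56666731 to 56668065), MT1H (56669814 to 56671129) and MT1X (56682424 to 56684196). MT1G is on the minus strand and the others on the plus strand, so that MT1G and MT1H point away from each other with 1748 bases between them. MTF1 (37809567 to 37859620) and SLC30A1 (211571568 to 211578742) are both on the minus strand of chromosome 1. The metallothionein genes are similar copies, and reads could be split between them, so their counts carry that uncertainty. Of the 90-base windows in the last 300 bases of their GENCODE transcripts, 92.8% for MT1H, 98.3% each for MT1G and MT1X and 100% for MT1E, MT1F and MT2A occurred in no transcript of another gene. The MT1H windows that were shared matched MT1HL1, a gene with 1 UMI in all 4 libraries. With 60-base windows the values were 83.5% for MT1H, 84.2% for MT1X, 88.3% for MT1G, 93.2% for MT2A, 96.0% for MT1E and 97.1% for MT1F, and MT1H then shared windows with MT1G as well. No source used here gives the read length.

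Promoter letters are shown because the members moved together across cells, as described further on. The RefSeq table (GRCh38.p14) held 5 of the 8 genes, MT2A, MT1X, MT1H, SLC30A1 and MTF1. The 250 bases before the RefSeq start were searched on both strands for the core of the metal response element in its spellings TGCACNC and TGCGCNC. A match on one strand could overlap a match on the other, which did not occur in these windows. Capitals mark the matches, and each run reads 5′ to 3′ on the gene's own strand:
MT1H: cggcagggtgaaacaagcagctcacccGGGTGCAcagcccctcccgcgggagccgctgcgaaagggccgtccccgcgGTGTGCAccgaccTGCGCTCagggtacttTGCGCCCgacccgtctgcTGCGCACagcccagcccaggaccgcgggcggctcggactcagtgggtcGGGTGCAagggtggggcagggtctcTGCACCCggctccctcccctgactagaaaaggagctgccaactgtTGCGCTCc
MT1X: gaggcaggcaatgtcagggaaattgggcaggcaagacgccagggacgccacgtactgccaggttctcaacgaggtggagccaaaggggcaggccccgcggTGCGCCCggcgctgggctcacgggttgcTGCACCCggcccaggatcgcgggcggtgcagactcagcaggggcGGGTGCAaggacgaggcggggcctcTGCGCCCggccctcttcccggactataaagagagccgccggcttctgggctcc
MT2A: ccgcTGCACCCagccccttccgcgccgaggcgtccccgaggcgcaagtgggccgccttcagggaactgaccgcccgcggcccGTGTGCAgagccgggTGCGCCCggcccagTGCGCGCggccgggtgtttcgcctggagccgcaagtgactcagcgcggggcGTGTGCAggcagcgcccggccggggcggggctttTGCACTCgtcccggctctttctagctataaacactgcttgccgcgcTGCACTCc
SLC30A1: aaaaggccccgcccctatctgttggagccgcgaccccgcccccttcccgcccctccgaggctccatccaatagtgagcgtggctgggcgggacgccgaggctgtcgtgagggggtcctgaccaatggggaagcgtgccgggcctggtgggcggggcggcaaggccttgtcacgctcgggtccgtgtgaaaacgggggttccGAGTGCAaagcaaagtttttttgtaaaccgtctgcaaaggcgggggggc
The windows are chr16:56669564-56669813 (MT1H, plus strand), chr16:56682220-56682469 (MT1X, plus), chr16:56608334-56608583 (MT2A, plus) and chr1:211579162-211579411 (SLC30A1, minus). The GENCODE start of MT1H is the base after its window, whereas the GENCODE models of MT2A, MT1X and SLC30A1 start elsewhere than the RefSeq ones. MT1H held 8 matches, MT2A 7, MT1X 4, SLC30A1 1 and MTF1 0. MT1H and MT1X both had a match from 78 to 72 and another from 53 to 47 bases before the start. Of 35116 RefSeq promoter windows of the same length, 24.8% held at least 1 match, 0.37% at least 4 and 0.0513% at least 6. A match is a run of letters and not a shown binding site.

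After filtering there were 5533 wild-type and 7275 knockout cells at day 0 and 5372 and 4419 at day 6, 22599 in all. Their medians ran from 8367 to 13169 unique molecular identifiers (UMIs, 1 per captured RNA molecule), and the summed cells of a library held 51424092 to 73451883 UMIs. Between any pair of libraries, 5 to 18 cell barcodes were the same. SIRT1 itself stood at 32.3 and 7.11 counts per 1000000 UMIs (CPM) at day 0, wild type before knockout, and at 30.2 and 9.95 CPM at day 6. The pluripotency factor POU5F1 was at 837.5 and 911 CPM at day 0 and at 185 and 182 CPM at day 6, while the floor-plate factor FOXA2 went from 3.76 and 0.994 to 91.4 and 101 CPM. LMX1A, a marker of midbrain floor plate, was at 0.564 and 2.48 CPM at day 6, near 0 beside FOXA2. Knockout cells differed from wild type in chromosome 20. At day 0 and day 6, 28.3% and 27.3% of knockout cells took 3% or more of their UMIs from it, and 96.3% and 78.15% of wild-type cells did. None of the 8 genes lies on chromosome 20.

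Levels are CPM of the summed cells, and ranges in parentheses are exact 95% intervals, for counting error alone. A gene counts as measured in a comparison with at least 10 CPM in 1 or both libraries, and higher or lower means at least 2-fold with an interval that excludes 1. Counting 3′ ends gives 1 tag per molecule, so levels were not divided by gene length. In these summed libraries, fewer cells with a gene and less RNA per cell cannot be told apart; the spread over cells is taken up after the levels.

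MT1X and MT2A, the most abundant members, set the total. At day 0 MT1X stood at 212 CPM (208.5 to 215) in wild-type cells, with 168.5 CPM (166 to 171.5) in knockout cells, and at 628 CPM (622 to 635) and 809 CPM (802 to 816) in the same order at day 6. MT2A stood at 112 CPM (109 to 114) and 116 CPM (113 to 118) at day 0, and at 857 CPM (849 to 865) and 845 CPM (838 to 852) at day 6. Both day 6 libraries thus lay above both day 0 libraries for these genes, by more than the genotypes differed at either day. MT1E followed the same order, with 64.1 CPM (62.3 to 66.0) and 58.2 CPM (56.4 to 59.9) at day 0 and 180 CPM (176.5 to 184) and 246 CPM (242 to 249.5) at day 6. Summed over the 6 genes, wild-type cells had 522 CPM (517 to 527) at day 0, knockout cells had 398.5 CPM (394 to 403), and the day 6 libraries had 1734 CPM (1723 to 1745) and 1959 CPM (1948 to 1970).

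None of the other 3 metallothioneins was 2-fold higher at day 6 in either genotype. MT1H had 26.8 CPM (25.7 to 28.1) in wild type at day 0, from 1971 UMIs. Knockout cells of day 0 had 1.48 CPM (1.22 to 1.79), from 109 UMIs. At day 6 wild-type cells had 5.08 CPM (4.48 to 5.73), from 261 UMIs, and knockout cells 0.781 CPM (0.581 to 1.03), from 51. Wild type at day 0 was thus the single library with MT1H above 10 CPM. MT1G had 77.4 CPM (75.4 to 79.4) and 25.6 CPM (24.5 to 26.8) at day 0 and 49.2 CPM (47.3 to 51.1) and 27.8 CPM (26.5 to 29.1) at day 6, and both knockout libraries lay below both wild-type libraries. MT1F had 30.0 CPM (28.8 to 31.3) and 28.9 CPM (27.7 to 30.1) at day 0 and 13.9 CPM (12.9 to 15.0) and 30.3 CPM (29 to 31.7) at day 6, so that wild type at day 6 stood alone as low.

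Of the remaining members, MTF1 hardly varied and SLC30A1 followed the day. MTF1 had 14.0 CPM (13.2 to 14.9) and 17.5 CPM (16.5 to 18.5) at day 0 and 15.8 CPM (14.8 to 16.95) and 17.1 CPM (16.2 to 18.2) at day 6. The intervals of MTF1 in both day 6 libraries overlapped each other and that of the knockout at day 0. SLC30A1 had 10.1 CPM (9.38 to 10.9) and 13.2 CPM (12.4 to 14.1) at day 0 and 35.2 CPM (33.6 to 36.8) and 39.1 CPM (37.6 to 40.7) at day 6.

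**Figure D1:**
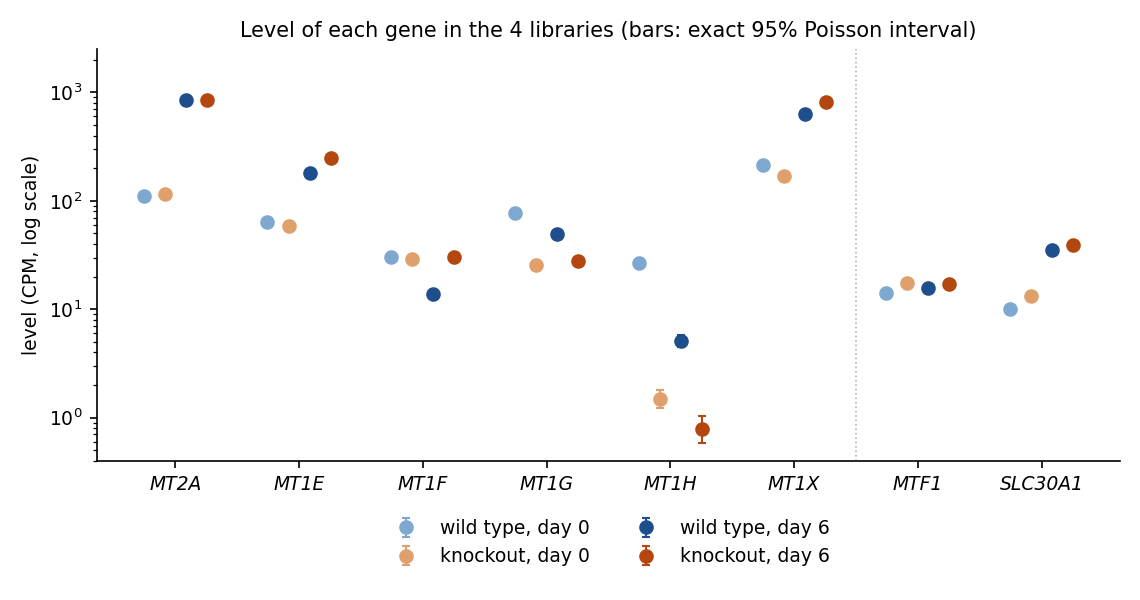
Level of each of the 8 genes in CPM on a log axis, with 1 point per library and its exact 95% Poisson interval. MT2A, MT1X, MT1E and SLC30A1 are higher in both day 6 libraries, MT1H and MT1G are lower in the knockout at both days, and MTF1 lies between 14.0 and 17.5 CPM.

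The wider family added little. Of 11 other listed metallothionein genes and pseudogenes, 6 had a row in the count tables and none reached 10 CPM. MT1M was the most abundant of these, with 5.37 CPM and 3.44 CPM at day 0 and 1.38 CPM and 0.352 CPM at day 6, wild type first. MT1M was therefore lower in the knockout at each day, by 1.56-fold (1.33 to 1.83) and 3.92-fold (2.42 to 6.58), below the level set for a measured gene. MT3, the brain form, stayed between 0.395 and 2.31 CPM and MT1A between 0.214 and 1.02 CPM. MT1B, MT1HL1 and MT4 had 1 UMI each in all 4 libraries together.

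The comparison of knockout with wild type at day 0 sets undifferentiated cells of the genotypes side by side. An effect of SIRT1 loss cannot be told apart here from that of clone, chromosome 20 state or library. MT1H was 18.1-fold (14.9 to 22.1) lower in the knockout and MT1G 3.02-fold (2.87 to 3.19) lower, the values for which the genes were chosen. In the knockout 10 cells held 83 of the 109 MT1H UMIs, which the interval does not take into account. The other 6 members were neither higher nor lower: MT1X was 1.26-fold (1.23 to 1.29) below wild type, MT1E 1.10-fold (1.06 to 1.15) below, and MT1F differed by less than counting error at a ratio of 0.961 (0.905 to 1.02). MT2A was at 1.04 times wild type (1.01 to 1.07), MTF1 at 1.25 times (1.15 to 1.35) and SLC30A1 at 1.31 times (1.19 to 1.44). Over all 9095 measured genes, 0.429% were higher and 0.495% lower, against 0 and 2 of the 8 members, a count that the choice of members fixed. The median log2 ratio of the 6 metallothioneins was -0.24, beside -0.007 over all measured genes. Among measured genes MT1H had the fourth lowest log2 ratio, -4.17, with PCDHB5 (-4.18) and MIR924HG (-3.99) next to it on either side.

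At day 6 the same comparison sets the genotypes side by side during differentiation, with the same limit. MT1F was the 1 member past 2-fold, 2.18-fold (1.996 to 2.37) higher in the knockout. MT1G was 1.77-fold (1.67 to 1.88) lower, short of the limit, and MT1H was 6.50-fold (4.80 to 8.96) lower but under 10 CPM in both libraries. Since 1 knockout cell held 49 of the 51 MT1H UMIs, that ratio rests on this cell and its interval is too narrow. MT1E was at 1.36 times wild type (1.33 to 1.40) and MT1X at 1.29 times (1.27 to 1.31), while MT2A was at 0.986 (0.974 to 0.999). MTF1 was at 1.08 times (0.989 to 1.19) and SLC30A1 at 1.11 times (1.05 to 1.18). Of 8723 measured genes 3.11% were higher and 1.99% lower, and of the 7 measured members 1 was higher and 0 lower. The 5 measured metallothioneins had a median log2 ratio of 0.36, beside 0.25 over all measured genes. Scaling by TMM or by median-of-ratios size factors, which bring that overall median to 0.025 and -0.002, takes the log2 ratio of MT1F from 1.12 to 0.90 and 0.88, so the call is lost. They take MT1G past 2-fold lower, SLC30A1 from a log2 ratio of 0.15 to -0.06 and -0.09, and the metallothionein sum from 1.13 to 0.973 and 0.956 times wild type. With TMM factors 1.2% of measured genes were higher and 3.15% lower in this comparison.

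The wild-type libraries of day 0 and day 6 show these genes over the first days of differentiation. MT2A was 7.68-fold (7.50 to 7.86) higher at day 6, SLC30A1 3.48-fold (3.20 to 3.8), MT1X 2.97-fold (2.91 to 3.02) and MT1E 2.81-fold (2.71 to 2.91). MT1H was 5.29-fold (4.65 to 6.04) lower and MT1F 2.15-fold (1.98 to 2.35) lower, while MT1G was 1.57-fold (1.501 to 1.65) below day 0 and MTF1 at 1.13 times (1.03 to 1.24). Of 9324 measured genes, 5.94% were higher and 19.4% lower; of the 8 members 4 were higher and 2 lower. TMM factors moved the overall median from -0.35 to 0.10 and the split of all measured genes to 12.4% higher and 8.64% lower. The call of MT1F was lost with these factors, with median-of-ratios factors and with cells thinned to 4000 UMIs each. The median log2 ratio of the 6 metallothioneins was 0.42, beside -0.35 over all measured genes.

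In the knockout the same 4 genes were higher at day 6 and none was lower. MT2A was 7.30-fold (7.13 to 7.47) higher, MT1X 4.80-fold (4.71 to 4.90), MT1E 4.23-fold (4.09 to 4.37) and SLC30A1 2.96-fold (2.75 to 3.19). MT1F was at 1.05 times day 0 (0.988 to 1.12), MT1G at 1.08 times (1.02 to 1.16) and MTF1 at 0.981 (0.905 to 1.06). Of 9368 measured genes, 5.76% were higher and 8.57% lower, and of the 7 measured members 4 were higher and 0 lower. With TMM factors the split over all genes was 7.41% higher and 6.54% lower. The median log2 ratio of the 5 measured metallothioneins was 2.08, beside -0.09 over all measured genes. MT1H, under 10 CPM in both knockout libraries, is left out of it (log2 ratio -0.92) but enters the wild-type median. The medians of the genotypes are thus over unlike sets of genes. Each pair of these comparisons shares libraries, so their values are given side by side and not as support for each other.

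**Figure D2:**
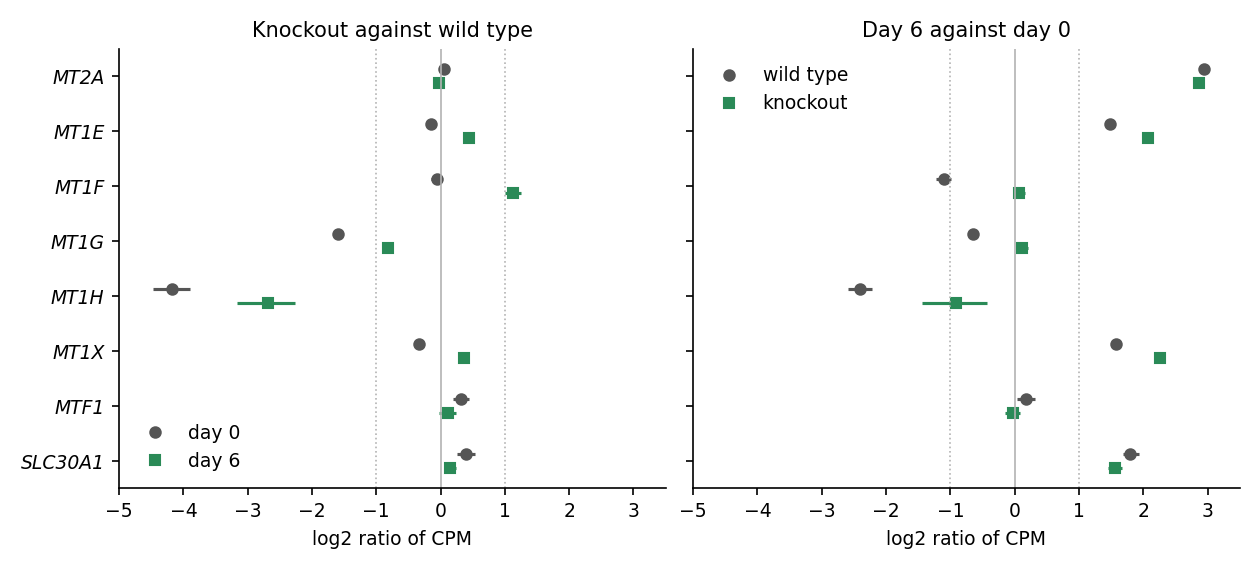
Log2 ratio of CPM for each gene, knockout against wild type on the left and day 6 against day 0 on the right, with exact 95% intervals as lines and dotted lines at 2-fold. MT1H and MT1G lie left of 0 at both days on the left, and MT2A, MT1X, MT1E and SLC30A1 lie right of the 2-fold line in both genotypes on the right.

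The make-up of metallothionein RNA changed with both day and genotype. MT2A made up 21.4% (21.0 to 21.8) of the UMIs of the 6 genes in wild type and 29.1% (28.6 to 29.6) in the knockout at day 0, and 49.4% (49.1 to 49.8) and 43.2% (42.9 to 43.4) at day 6. MT1X kept a similar share throughout, from 36.2% to 42.3%. MT1G made up 14.8% (14.5 to 15.2) in wild type at day 0, 6.43% (6.15 to 6.71) in the knockout, 2.84% (2.73 to 2.95) in wild type at day 6 and 1.42% (1.35 to 1.48) in the knockout at day 6. MT1H went in the same library order, with 5.14% (4.92 to 5.37), 0.372% (0.306 to 0.449), 0.293% (0.258 to 0.330) and 0.0398% (0.0297 to 0.0524). Both shares were highest in wild type at day 0 and lowest in the knockout at day 6.

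**Figure D3:**
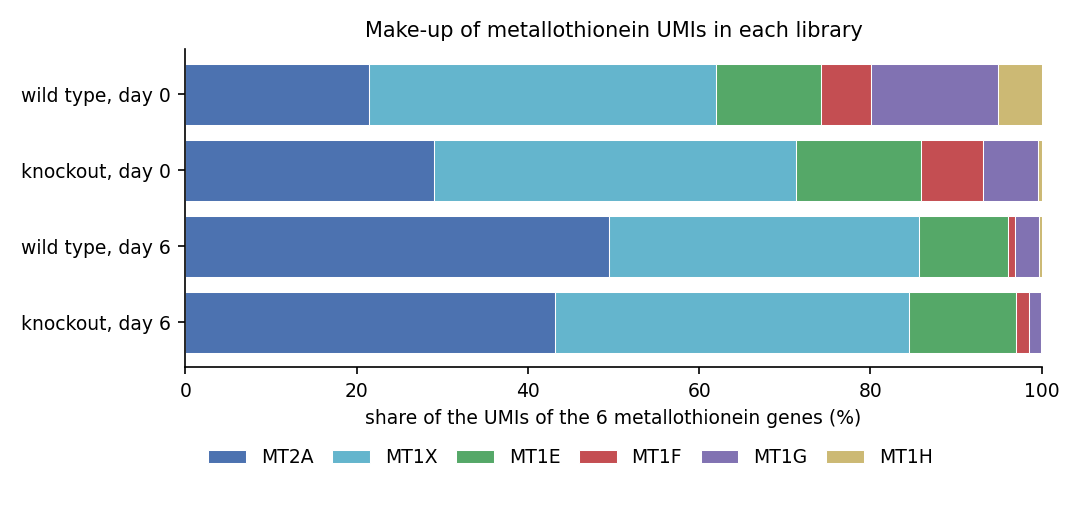
Share of the UMIs of the 6 metallothionein genes that each gene took, in percent, with 1 bar per library. MT2A widens from 21.4% in wild type at day 0 to 49.4% at day 6, and the MT1G and MT1H segments are widest in wild type at day 0.

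The day 6 increase sat in a minority of cells. The median cell held 1.97 and 1.63 metallothionein counts per 10000 UMIs at day 0, wild type first, and 2.11 and 1.90 at day 6, so the middle of the distribution barely differed. The 90th percentile was 12.1 and 5.94 at day 0 and 48.0 and 46.8 at day 6. After thinning to 4000 UMIs a cell, the 10% of cells with most metallothionein held 59.5% and 63.7% of its UMIs at day 0 and 76.6% and 80.6% at day 6. Cells with 20 or more metallothionein UMIs of 4000 were 1.43% (1.13 to 1.78) and 1.05% (0.824 to 1.31) of cells at day 0 and 10.1% (9.30 to 10.9) and 9.71% (8.85 to 10.6) at day 6. At day 6 these cells held 76.9% and 80.0% of the metallothionein UMIs. Their median depth was 8153 and 14920 UMIs, against 8557 and 12735.5 in the cells without a metallothionein UMI.

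Leaving out the 10% of cells with the highest metallothionein share in each library, an alternative chosen after seeing the data, brought the day 6 ratio of the sum from 3.32 to 1.88 in wild type and from 4.92 to 2.45 in the knockout. In wild type the calls of MT1E and MT1X were then lost and those of MT2A and SLC30A1 were not. In the knockout the call of MT1E was lost. At day 0 MT1H was then under 10 CPM in both genotypes, with a log2 ratio of -4.76. In the same setting the sum in the knockout at day 6 went from 1.13 to 0.895 times wild type.

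**Figure D4:**
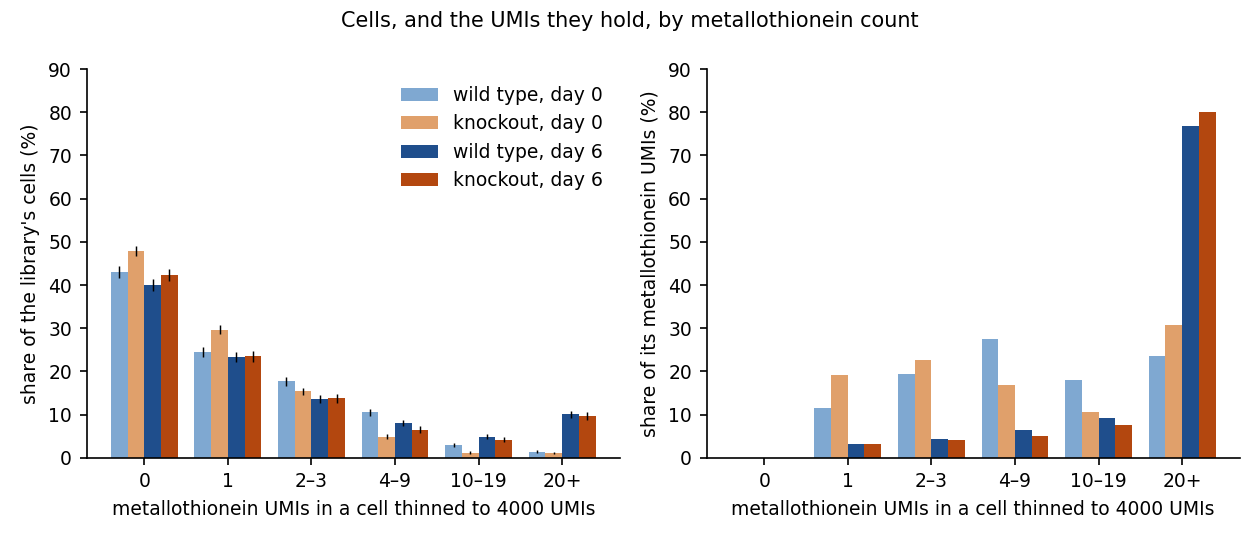
Cells grouped by their metallothionein UMIs after thinning to 4000 UMIs: share of the library's cells on the left, with exact 95% binomial intervals, and share of its metallothionein UMIs on the right. About 10.1% and 9.71% of day 6 cells fall in the group with 20 or more UMIs and hold 76.9% and 80.0% of the UMIs.

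This unevenness was large beside that of other genes. The variance of MT2A over thinned cells was 7.74 and 14.2 times its mean at day 0 and 31.9 and 35.6 times at day 6, where the median gene had 1.02 to 1.03. Among the 7043 to 8115 genes with at least 0.05 UMIs per cell, MT2A ranked 5 and 3 from the top at day 0 and 1 in both day 6 libraries. MT1X ranked 12, 9, 3 and 4 and MT1E 15, 6, 6 and 6, in the order of wild type and knockout at day 0 and then at day 6. MTF1 was at 0.99 to 1.01 times its mean in each library, close to what counting alone gives.

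Free RNA bears on the low end of these distributions. After thinning, 57.02% (55.7 to 58.3) of wild-type cells had a metallothionein UMI at day 0 and 52.2% (51.1 to 53.4) of knockout cells did. The day 6 shares were 59.96% (58.6 to 61.3) in wild type and 57.7% (56.2 to 59.2) in the knockout. Without thinning the 4 libraries had 83.4%, 74.5%, 77.5% and 86.2%. If free RNA made up 10% of each cell, it alone would put a metallothionein UMI in 20.6% and 22.6% of day 0 cells, and in 53.7% and 54.5% of day 6 cells. At day 6 the share of cells with any metallothionein UMI was thus close to that background, and no order is read from it. For MT1H in the knockout the thinned share was 0.275% (0.168 to 0.424) at day 0 and 0.0226% (0.000573 to 0.126) at day 6, beside 0.0561% and 0.0402% from free RNA. In wild type it was 4.99% (4.43 to 5.60) and 0.596% (0.408 to 0.840), beside 0.975% and 0.164%.

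MT1H RNA in the knockout came from very few cells. At day 0, 33 of 7275 knockout cells had an MT1H UMI, and 7 cells with 5 or more UMIs were part of the 10 cells that held 83 of the 109 UMIs. At day 6, 3 of 4419 knockout cells had one, and 1 cell held 49 of the 51 UMIs. Without these 7 cells and this 1 cell, the knockout had 0.505 and 0.0306 CPM of MT1H. In wild type, 534 cells had an MT1H UMI at day 0 and 49 at day 6, and the top 10 cells held 16.3% and 60.9% of the UMIs.

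The knockout cells with MT1H were low in SIRT1 too. The 33 cells at day 0 held 1 SIRT1 UMI in 496431 UMIs, or 2.01 CPM, while wild-type cells with MT1H were at 34.7 CPM. They also held 0 UMIs of S100A6 and of TMBIM4, genes named after their low knockout values were seen. At this depth a count of 0 allows up to 6.04 CPM, and wild-type cells without MT1H had 17.3 and 14.0 CPM of these genes. None of their barcodes occurred among the cells of another library. By chromosome 20, knockout cells at 3% or more had 1.99 CPM (1.42 to 2.71) of MT1H at day 0 and those under 2.6% had 0.210 CPM (0.0906 to 0.414), while the metallothionein sum was 406.5 and 364 CPM. MT1H was thus below 3 CPM in both classes, against 26.8 CPM in wild type. These classes leave out the knockout cells between 2.6% and 3%. Cells at 3% or more held 40 of the 109 MT1H UMIs of this library, and those under 2.6% held 8. Most of the MT1H UMIs thus lay in the cells left out, whose level was not computed.

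In wild type at day 0, cells with MT1H held more of the other metallothioneins too. The 108 cells with 2 or more MT1H UMIs of 4000 had 931 CPM of MT1G, 952 CPM of MT1X, 1033 CPM of MT2A and 557 CPM of MT1E. Cells with 0 MT1H UMIs had 53.9, 190, 86.2 and 49.7 CPM of the same genes. In this library SLC30A1 was at 6.28 CPM in the cells with MT1H and 10.2 CPM in those without. In wild type at day 6 it was at 107 CPM in the 18 cells with 2 or more MT1H UMIs and 34.8 CPM in those without. In the knockout at day 0 it was at 27.8 CPM in 5 such cells and 13.2 CPM in those without. The 1 such cell of the knockout at day 6 had 0 CPM, against 39.1 CPM. These SLC30A1 levels rest on few cells and few UMIs and have no intervals, so no direction is read from them. Knockout cells rich in metallothionein had a smaller share of MT1H: with 20 or more metallothionein UMIs at day 0, MT1H took 9.16% of them in wild type and 0.583% in the knockout, and MT1G 16.4% and 7.42%. MT1H and MT1G were thus lower in the knockout among the metallothionein-rich cells too. Both were chosen for low values in this library and entered the grouping, so this describes the choice and is no separate support.

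SLC30A1, which the grouping of cells did not use, tracked metallothionein in 3 of the 4 libraries. In wild type at day 6 it went from 19.6 CPM (17.7 to 21.6) in cells without a metallothionein UMI to 111 CPM (102 to 121) in cells with 20 or more. In the knockout at day 6 it went from 17.5 CPM (16.0 to 19.2) to 128 CPM (120 to 137). In the knockout at day 0 it went from 10.5 CPM (9.45 to 11.7) to 85.6 CPM (65.9 to 109), the latter from 64 UMIs in 76 cells. In wild type at day 0 it was 9.75 CPM (8.68 to 10.9) in cells without and 10.8 CPM (5.18 to 19.9) in the 79 cells with 20 or more, the latter from 10 UMIs. The intervals of the top group did not overlap between the genotypes at day 0, while metallothionein in these cells was at 8149 CPM (wild type) and 10780 CPM (knockout).

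MTF1 had no direction along the same groups. It ran from 9.73 to 16.0 CPM in wild type at day 0, from 8.12 to 20.5 CPM in the knockout at day 0, from 14.9 to 17.2 CPM in wild type at day 6 and from 15.8 to 19.9 CPM in the knockout at day 6. In the knockout at day 0 the lowest value, 8.12 CPM (3.51 to 16.0) from 8 UMIs in the cells with 10 to 19 metallothionein UMIs, had an interval apart from the 20.5 CPM (16.35 to 25.3) of the cells with 4 to 9. MTF1 is regulated by zinc at the protein level, which RNA counts do not show.

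**Figure D5:**
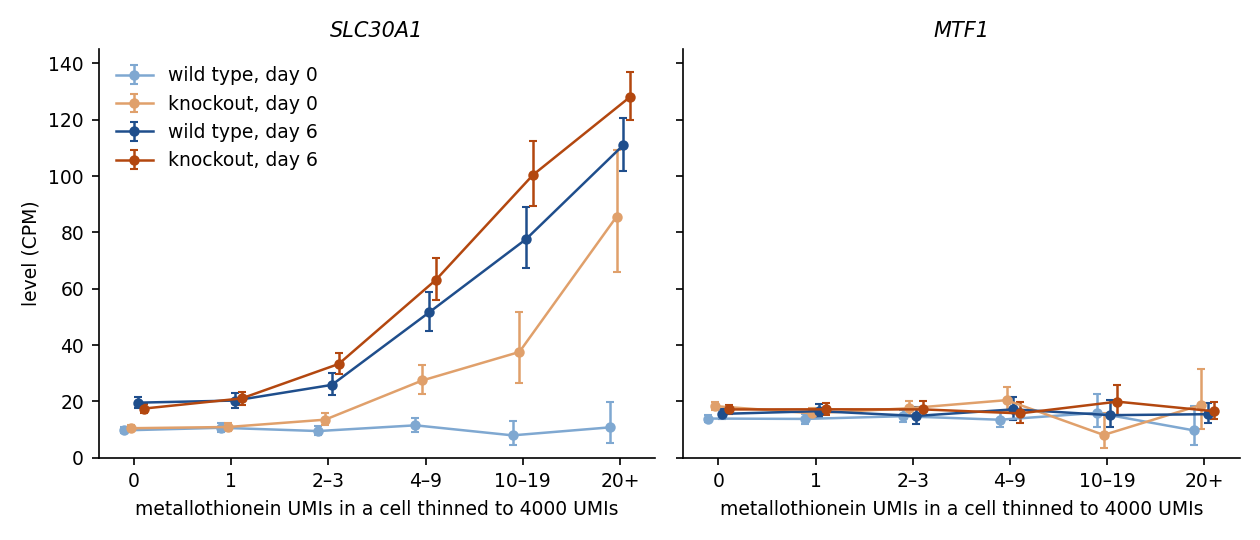
Level of SLC30A1 (left) and MTF1 (right) in CPM, with exact 95% Poisson intervals, in cells grouped by their metallothionein UMIs after thinning to 4000 UMIs. SLC30A1 climbs to 85.6, 111 and 128 CPM in the knockout at day 0 and in both day 6 libraries, stays near 10 CPM in wild type at day 0, and MTF1 moves in no one direction, between 8.12 and 20.5 CPM.

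Across single cells of a library the metallothioneins varied together, on log counts per 10000, given as a description over 4419 to 7275 cells that share a library and its depth. MT2A and MT1X had r = 0.449 and 0.439 at day 0, wild type first, and 0.714 and 0.804 at day 6. On thinned counts, without the log, these were 0.592 and 0.783 at day 0 and 0.776 and 0.842 at day 6, so the contrast between days was much smaller in the knockout. MT2A and MT1E had r = 0.715 and 0.604 at day 0 and 0.660 and 0.735 at day 6. The neighbours MT1G and MT1H had r = 0.554 in wild type and 0.241 in the knockout at day 0, and 0.458 and 0.159 at day 6. On thinned counts these were 0.565 and 0.352, and 0.506 and 0.126. Only 33 and 3 knockout cells held an MT1H UMI, against 534 and 49 in wild type. The lower knockout values are thus not read as a weaker tie. The metallothionein sum had r = 0.0234 to 0.125 with the log of total UMIs.

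Among 9272 genes detected in at least 5% of the cells of every library, SLC30A1 was the one most like the metallothionein sum, with a mean r of 0.25 over the 4 libraries. Its r was 0.035 and 0.163 at day 0, wild type first, and 0.327 and 0.476 at day 6, and it ranked 1 in each day 6 library. On thinned counts, without the log, its r was lower, 0.0324 and 0.0898 at day 0 and 0.23 and 0.286 at day 6. The next 9 genes were S100A10, SLC2A3, GAPDH, RPL12, RPS16, FAM162A, KRT19, RPL8 and EEF1A1, with mean r from 0.156 down to 0.131. MTF1 ranked 4306. Both day 0 libraries had other leading genes. In wild type these were PLAAT3 (r = 0.351), GAL (0.308), ESRG (0.281) and UGP2 (0.281), of which ESRG is a non-coding RNA known from pluripotent cells. In the knockout they were IGFBP2 (0.203), FAM162A (0.175), RPL12 (0.174) and EEF1A1 (0.171), with SLC30A1 at rank 8.

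Metallothionein levels also differed between cells grouped by other gene lists or by mitochondrial share. Only some of the lists compared are given here. In each library, the up to 10% of cells highest for an S-phase gene list had less metallothionein than the others. The ratios were 0.583 and 0.618 at day 0, wild type first, and 0.446 and 0.341 at day 6. For G2 and M phase genes they were 0.776 and 1.26 at day 0 and 0.763 and 0.660 at day 6. The knockout at day 0 thus went the other way for G2 and M phase genes. The cells highest for 14 hypoxia-response genes had more, at 2.07 and 3.02 times the others at day 0 and 1.93 and 1.43 times at day 6. For 6 epithelial genes such as KRT18, KRT8 and EPCAM the ratios were 1.61 and 2.66 at day 0 and 1.13 and 1.41 at day 6. For 13 NRF2 targets, the oxidant response, they were 1.01 and 1.28 at day 0 and 0.972 and 0.744 at day 6. These had no common direction. For 14 zinc importers the ratios were 0.727 and 0.741 at day 0 and 0.746 and 0.854 at day 6. For 11 copper-handling genes they were 0.767 and 0.828 at day 0 and 0.787 and 0.522 at day 6. In the knockout at day 0 the 1819 cells with the lowest mitochondrial share had 733 CPM (721 to 745) of metallothionein and the 1818 cells with the highest had 220 CPM (213 to 227). The wild type, split into 4 equal parts in the same way, had 633.5, 444, 496 and 522 CPM from lowest to highest share. This was not a steady fall. At day 6 the lowest and highest parts had 2505 and 1230 CPM in wild type and 2530 and 983 CPM in the knockout. The part of cell cycle, hypoxia genes or mitochondrial share in the metallothionein levels was not tested.

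Few other genes of metal handling were higher at day 6. Over all measured genes 5.94% were higher and 19.4% lower at day 6 in wild type, and 5.76% and 8.57% in the knockout. Of 10 zinc exporters 5 were measured: from day 0 to day 6 in wild type SLC30A1 was higher, SLC30A6 and SLC30A9, which serve the Golgi and the mitochondria, were lower (log2 ratios -1.50 and -1.45), and the other two were neither. In the knockout SLC30A1 was higher and the other 4 were neither. Of 14 zinc importers 7 were measured, and the same 2 were lower in each genotype: SLC39A3 (log2 ratios -1.67 and -1.07) and SLC39A14 (-1.62 and -1.40). Of 11 copper-handling genes 8 were measured, and 0 were higher or lower in any of the 4 comparisons. Of 10 iron-handling genes 9 were measured. In wild type FTL, the ferritin light chain, was 2.16-fold (2.15 to 2.18) higher at day 6 and ACO1 was lower (log2 ratio -1.06), while in the knockout 0 of the 9 were called and FTL was at 1.27 times day 0. None of the measured zinc exporters, zinc importers or iron-handling genes was past 2-fold between genotypes at either day. Over all measured genes 0.429% were higher and 0.495% lower in the knockout at day 0, and 3.11% and 1.99% at day 6. With so few genes per list, these counts are not read as a result about metal handling.

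Lists for known inducers differed from each other. Of the hypoxia-response genes, 9 of 13 measured were higher at day 6 in wild type and 8 of 13 in the knockout, led by NDRG1 (log2 ratios 4.68 and 2.10), beside 5.94% and 5.76% of all measured genes. Between genotypes 4 of 12 were higher in the knockout at day 0, beside 0.429% of all genes, and 3 of 13 at day 6, EGLN1, EGLN3 and PFKFB4, beside 3.11%. Of the NRF2 targets, 0 were higher and 2 of 12 lower at day 6 in wild type, HMOX1 and GCLM (-1.59 and -1.19), and 1 of 11 was lower in the knockout, again HMOX1 (-2.72). Both shares are near those of all measured genes, 19.4% and 8.57% lower. Between genotypes at day 6, 2 of 11 measured were lower in the knockout, HMOX1 and NQO1 (-2.07 and -1.05), beside 1.99% of all measured genes. Of the heat-shock genes, 0 of 11 were higher in any comparison, and HSPE1 was lower at day 6 in both genotypes (log2 ratios -1.37 and -1.03). Of the glucocorticoid-response genes, 3 of 6 measured were higher and 2 lower at day 6 in wild type. In the knockout 2 of 5 were higher and 1 lower. Over all measured genes 5.94% were higher and 19.4% lower at day 6 in wild type, and 5.76% and 8.57% in the knockout. Of the glucocorticoid-response genes, 1 of 5 measured was lower in the knockout than in wild type at day 6, DUSP1 (-1.05), beside 1.99% of all measured genes.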

How the data were processed

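RNA was measured by droplet sequencing of transcript 3′ ends in 4 libraries, 1 for each genotype and day as the labels give them. The authors deposited raw UMI counts per gene and barcode for every barcode. Cell Ranger 6.1.2 and the build GRCh38 are named per the submitters' processing notes, whereas the matrices name Cell Ranger 4, per the file headers. No source used here gives the annotation version.

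Cells were barcodes with at least 4000 UMIs, at least 1000 genes and at most 20% mitochondrial UMIs. Doublets were kept, and an alternative left out the 5% of cells with most UMIs. Counts were summed per library and scaled to 1000000 UMIs. Ratios have exact conditional binomial (Clopper-Pearson) 95% intervals and levels exact Poisson ones. These intervals compare libraries and cover counting error only. A prior count of 0.5 entered each log2 ratio. The upper limit for a count of 0 was 3 counts. The free-RNA profile came from barcodes with 1 to 50 UMIs. Positions came from GENCODE 29, matched by Ensembl identifier for 34616 of 36601 features. Each gene described is a member, a row of the same family, one of up to 4 list members with the largest log2 ratios, or one of 10 genes with the highest mean correlation. The members and lists were chosen with earlier results of these data known. The ratio and its call were tested on simulated data with Poisson counts alone. These have no spread between cells or libraries beyond counting, so they cannot show how the calls hold for these genes. Alternatives were other cell limits, scalings, thinning, free-RNA subtraction, fold limits and cells left out. Tools were Python 3.11.15, numpy 2.4.6, scipy 1.17.1 and edgeR 4.0.16, the last for TMM factors only.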

Additional observations from a re-analysis of the deposited data

Results flagged for a closer look

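Knockout and wild type stood in opposite order at day 0 and day 6 for 4 quantities, with counting intervals that exclude 1 at both days. Such intervals leave out the uneven spread over cells, so for these genes they are too narrow. The difference between days was not tested, since there is 1 library per group. The metallothionein sum of the knockout was 0.763 times wild type at day 0 and 1.13 times at day 6. MT1X went from 0.796 to 1.29 times and MT1E from 0.907 to 1.36 times. MT2A went from 1.04 to 0.986 times, an order that did not hold: at day 0 its log2 ratio was below 0 in 5 of 11 alternatives (range -0.20 to 0.13), and at day 6 it kept its sign in 9 of 11 (-0.54 to 0.18). MT1G was opposite between genotypes in its change from day 0 to day 6, which also was not tested: it was at 0.636 times day 0 in wild type and at 1.08 times in the knockout. In the knockout its log2 ratio was 0.12, but -0.20 in cells with 3% or more from chromosome 20 and -1.04 without the 10% of cells richest in metallothionein, so the opposite order was absent there.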

How the results depend on the processing

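The ratio of the metallothionein sum moved by more than its counting interval in most settings but kept its direction, except at day 6 between genotypes. Knockout against wild type at day 0 was 0.763, and it was 0.723 with thinned cells, 0.72 with free RNA subtracted, 0.737 without the deepest cells, 0.665 and 0.686 without the 1% and 10% of cells richest in metallothionein, 0.779 with knockout cells at 3% or more from chromosome 20, 0.798 with TMM and 0.797 with median-of-ratios factors. At day 6 it was 1.13, and in the same order 1.04, 1.14, 1.11, 1.14, 0.895, 1.32, 0.973 and 0.956, with 1.06 when scaled without ribosomal protein and mitochondrially encoded genes. The chromosome 20 setting left all wild-type cells in. Among cells at 3% or more at day 6, the sum was 2288 CPM in the knockout and 1463 CPM in wild type. Day 6 against day 0 in wild type was 3.32, and it was 3.37 thinned, 3.4 without the deepest cells, 3.22 and 1.88 without the 1% and 10% richest, 4.41 with TMM, 4.44 with median-of-ratios factors and 3.55 without ribosomal and mitochondrial genes. In the knockout it was 4.92, and it was 4.85 thinned, 5.27 with free RNA subtracted, 5.09 without the deepest, 5.51 and 2.45 without the richest, 5.63 by chromosome 20, 5.37 and 5.32 by the 2 factors.

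Counts of members past 2-fold changed as follows. At day 6, 0 instead of 1 were higher in the knockout with TMM and median-of-ratios factors. MT1G made 1 instead of 0 lower with these, with thinning, by chromosome 20 and at a 1.5-fold limit. In wild type over time, 1 instead of 2 were lower with thinning and both factors. Without the 10% richest cells, 2 instead of 4 were higher there, 3 instead of 4 in the knockout over time (MT1E was lost), and 1 instead of 2 were lower in the knockout at day 0. MT1G was called lower in wild type over time without the 1% (log2 ratio -1.01) and the 10% (-2.33) richest cells. Of 120 correlations between members, 79 moved under thinning. No member past 2-fold changed direction under the alternatives run, and the causes of the moves were not tested. The chromosome 20 setting does not touch the wild type over time. No paired analysis was possible because there was 1 library per group and the labels carry no replicate numbers.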
